A study of Homo sapiens with 6 samples.

Results

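The genes followed here were 10 members of the BCL2 family, BCL2, BCL2L1, MCL1, BAX, BAK1, BID, BAD, BBC3, PMAIP1 and BCL2L11. They are a set of well known promoters and inhibitors of mitochondrial cell death, and all 10 were found by symbol among the 62443 genes of the table. The values are FPKM, fragments per kilobase of gene length, scaled to the number of mapped fragments, from RNA-sequencing of HGC-27 cells. HGC-27 is a human line from an undifferentiated gastric cancer. A group of 3 Con libraries was compared with a group of 3 GLUP libraries. The labels give Con as having no treatment, while the study's methods describe cells that received the peptide's storage buffer. GLUP is a ring-shaped peptide built on the TEAD4-binding stretch of VGLL4, a natural repressor of the transcription factor TEAD4. It was designed to glue TEAD4 into a repressive condensed state, and the question addressed here is what became of the transcripts of this family under it. No change of genotype is labelled in either group, no inactive control peptide was among the samples analysed here, and a single cell line stands for the tumour. In such bulk samples, fewer cells with a transcript and less of it per cell cannot be told apart. The length of the treatment is given differently in the results and the methods of the study.

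The BCL2 family decides whether the outer membrane of the mitochondrion is opened, the step that commits a cell to intrinsic apoptosis. Its guardians (BCL2, BCL-XL from BCL2L1, and MCL1) hold the effectors BAX and BAK1 in check. The BH3-only proteins carry stress signals to them: BID, BIM (from BCL2L11) and PUMA (from BBC3) can engage effectors and guardians, whereas BAD and NOXA (from PMAIP1) bind guardians, NOXA mainly MCL1. Opening of the membrane frees cytochrome c, which activates caspases through the apoptosome. Many of these proteins are governed by cleavage, phosphorylation, folding state or rapid turnover, none of which an RNA measurement sees.

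Because GLUP acts on TEAD4, the promoter windows of the genes were searched for the core of the TEAD motif, GGAATG or CATTCC on the other strand, and for the palindrome CACGTG, the E-box bound by the MYC and USF families. No match of one motif overlapped a match of the other in the windows of these genes. RefSeq windows on GRCh38.p14, from 250 bases before a start site to 50 bases from it onwards, were at hand for 9 genes, with 15 windows in all. MCL1 was not matched. The TEAD core was found in 1 of these 15 windows, that of BBC3, compared with 14% of all 35093 windows in the table. The E-box was found in 4 of the 15 windows, belonging to BAX, BBC3 and BID (a single site in 2 overlapping windows), compared with 7.26% of all windows. BAX held 4 copies, beginning at positions -138, -93, -45 and -14 with the start site as base 1, and only 5 of the 35093 windows (0.0142%) held 4 or more. The 3 windows below are those of BAX, the member whose groups were separated, of BBC3, which holds the TEAD core, and of BID, the most abundant member. Capitals mark the motifs. The letters are a description of these windows and show no binding.

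BAX, GRCh38.p14, chr19:48954625-48954924, plus strand: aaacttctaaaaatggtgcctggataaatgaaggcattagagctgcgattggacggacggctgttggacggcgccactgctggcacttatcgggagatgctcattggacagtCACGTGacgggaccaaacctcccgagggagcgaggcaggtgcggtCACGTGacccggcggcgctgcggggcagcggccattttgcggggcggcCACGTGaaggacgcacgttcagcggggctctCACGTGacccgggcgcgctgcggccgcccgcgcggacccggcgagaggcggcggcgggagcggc
BBC3, GRCh38.p14, chr19:47232618-47232917, minus strand: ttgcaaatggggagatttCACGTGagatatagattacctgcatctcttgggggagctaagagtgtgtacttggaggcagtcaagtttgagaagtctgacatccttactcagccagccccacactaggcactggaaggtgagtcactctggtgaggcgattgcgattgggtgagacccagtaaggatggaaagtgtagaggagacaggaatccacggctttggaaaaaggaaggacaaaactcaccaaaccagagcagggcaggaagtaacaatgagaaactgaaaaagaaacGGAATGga
BID, GRCh38.p14, chr22:17773934-17774233, minus strand: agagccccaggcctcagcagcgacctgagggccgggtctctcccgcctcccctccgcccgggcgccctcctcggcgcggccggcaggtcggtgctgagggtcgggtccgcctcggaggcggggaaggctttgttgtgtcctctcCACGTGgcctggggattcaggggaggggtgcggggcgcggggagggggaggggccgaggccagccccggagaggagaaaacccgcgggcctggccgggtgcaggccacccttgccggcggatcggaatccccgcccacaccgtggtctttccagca

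The libraries were not alike in quality. Between 20061 and 21498 genes were above 0 per library. The number of reads behind the values is unknown, and the relative depth read from the lowest values ran from 0.831 to 1. Across tested genes, Con replicate 2 correlated least with the remaining libraries, at a mean r of 0.898, whereas the others reached 0.954 to 0.964. The deviation of a library from the gene means followed the GC content of the transcripts, with Spearman coefficients across genes of -0.601 in Con replicate 2 and -0.343 in Con replicate 1, but 0.340 to 0.544 in the other 4 libraries. Con replicate 3 thus resembled GLUP in this respect. The cell type was checked on marker lists. Gastric mucosa markers were absent, with 4 of 5 at 0 and a summed level of at most 0.0128 FPKM. Epithelial markers summed to 2.97 to 3.70 FPKM in Con and 5.18 to 6.06 FPKM in GLUP, with 3 of 5 at a mean of at least 1 FPKM. These were KRT8, KRT18 and KRT19, each higher in every GLUP library. GLUP lay entirely above Con for 7.55% of all tested genes. KRT18 and KRT19 reached a mean of 1 FPKM only through GLUP, with Con means of 0.959 and 0.865 FPKM. The canonical transcripts of these 3 keratins have a GC content of 59.3%, 58.2% and 61.8%. The part of base composition in their differences was not tested. EPCAM and CDH1, at very low levels, had lower means in GLUP. CDH1 was at 0.0148 to 0.0799 FPKM in Con and at 0 in GLUP. Mesenchymal markers, led by VIM, summed to 345.5 to 395.8 FPKM in Con and 235.3 to 344.1 FPKM in GLUP, with 3 of 4 at a mean of at least 1 FPKM. VIM, FN1 and CDH2 had lower means in GLUP. SPARC had a higher one, at 6.89 FPKM in Con and 9.06 FPKM in GLUP, with overlapping groups. Blood and endothelial markers reached at most 0.0394 and 0.00450 FPKM, with 3 of 4 and 1 of the 2 matched at 0.

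Differences between GLUP and Con were tested with limma on log2(FPKM + 1), for the 7406 genes whose level averaged 1 FPKM or more across all libraries. Of the members, 5 passed this minimum, namely BID, PMAIP1, BAD, BAX and MCL1. The other 5, BCL2L1, BAK1, BCL2L11, BCL2 and BBC3, were read from that fit run over every detected gene. None of the 10 reached an adjusted p under 0.05, and neither did any gene of the table (0%). Leaving out 1 library moved the count over all genes, to 3 (0.0405%) without Con replicate 2 and to 1367 (18.5%) without Con replicate 3, with no member called in either fit. Before adjustment, 1606 of the tested genes (21.7%) had a p under 0.05, with 1 member among them, BAX, which was in the tested set only through its GLUP values. A p that misses the threshold does not show that the levels were equal, and the intervals below give the range of differences the 3 libraries per group allow. Of the 10 members, 6 had a higher mean of log values in GLUP and 4 a lower one. The 6 include BBC3, which was above 0 in only 3 libraries. Among the 5 tested members, BAX included, the median log2 fold change was 0.12. This was the value of BAD, which was -0.43 without Con replicate 2. With 5 genes, 1 of them tested only through its GLUP values, this median does not set the family apart from the table. Across all 7406 genes the median was -0.23, and 65.5% of them were lower in GLUP. Fold changes are therefore also given relative to that median where a member passed the minimum. Scaling the libraries by the trimmed mean of log ratios moved the median of all genes to -0.02.

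**Figure D1:**
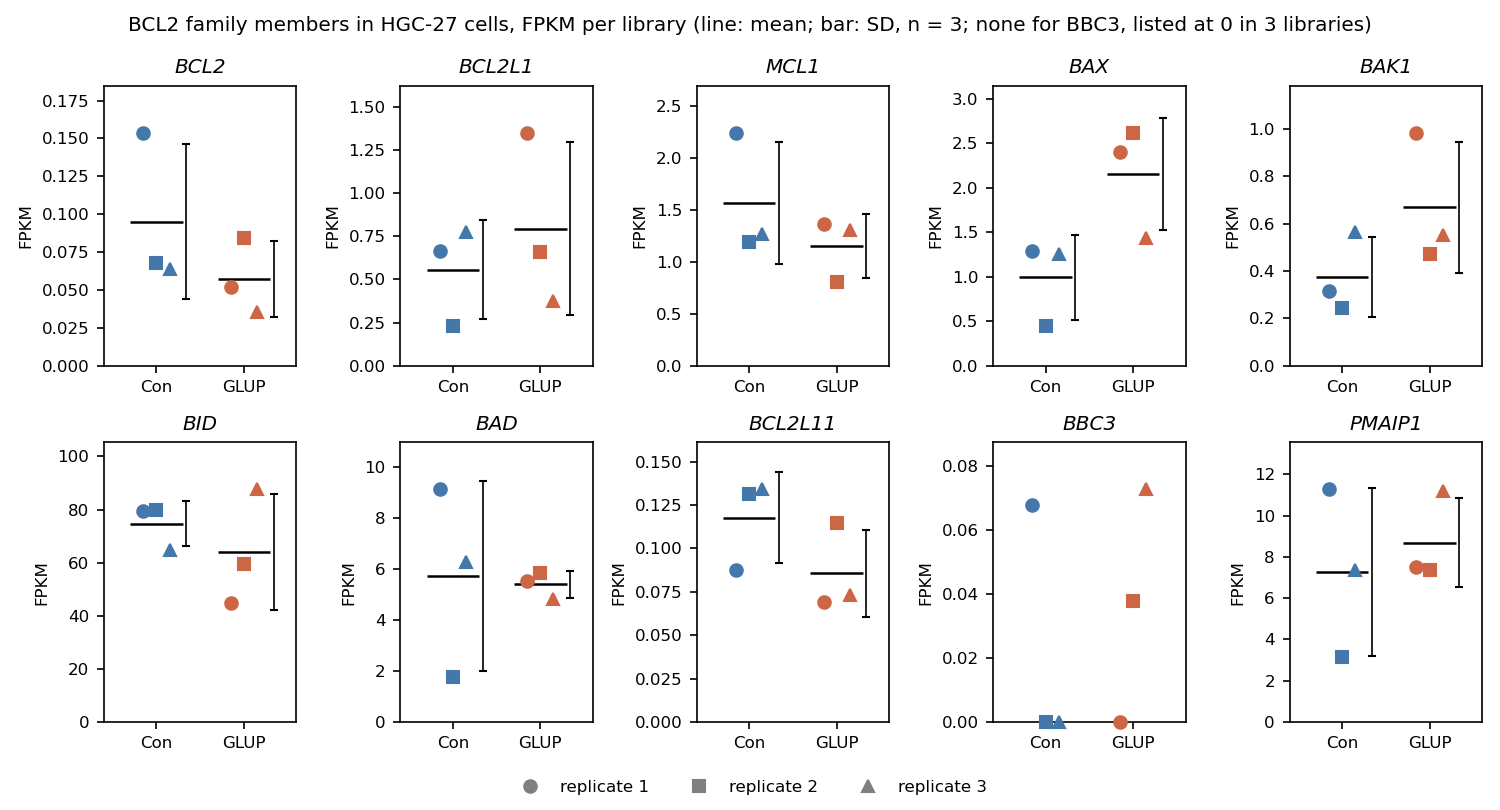
FPKM of each BCL2 family gene (vertical axes, each from 0) in the 3 Con (blue) and 3 GLUP (orange) libraries, with the marker shape giving the replicate, a line at the mean and a bar of 1 SD (n = 3), both left out for BBC3. BAX is the only gene whose GLUP values, from 1.43 to 2.62 FPKM, all lie above its Con values, from 0.441 to 1.29 FPKM. GLUP lay entirely above Con for 7.55% of all tested genes.

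The guardians among the members were expressed at low levels and none was separated between the groups. MCL1 (ENSG00000143384, protein-coding, chr1:150533371-150552214, minus strand, GRCh37), a short-lived guardian, measured 2.24, 1.19 and 1.27 FPKM in the Con libraries, in the order of their replicate numbers as for all values below, and 1.36, 0.803 and 1.30 FPKM in the GLUP libraries. A high Con replicate 1 and a low GLUP replicate 2 set the group means apart, while the remaining 4 values lay close together. The log2 fold change was -0.24 (SE 0.25, 95% interval -0.79 to 0.31, adjusted p 0.542 in limma), and -0.0088 relative to the median of the table. With the trend in GC content and length removed from each library it was 0.13. At BCL2L1 the study reported a weaker TEAD4 signal with GLUP than in control cells, a measure of occupancy and not of RNA. BCL2L1 (ENSG00000171552, chr20:30252255-30311792, minus strand), which encodes BCL-XL, was at 0.665, 0.232 and 0.776 FPKM in Con and at 1.35, 0.658 and 0.374 FPKM in GLUP. The GLUP values spanned most of the Con range and passed it in replicate 1. GLUP differed from Con by 0.19 (log2 fold change; SE 0.25, 95% interval -0.42 to 0.80, adjusted p 0.704 in limma), and by -0.028 without GLUP replicate 1. BCL2 (ENSG00000171791, chr18:60790579-60987361, minus strand), the founding guardian, was nearly silent, at 0.154, 0.0676 and 0.0640 FPKM in Con and at 0.0520, 0.0845 and 0.0352 FPKM in GLUP. The highest value was again that of Con replicate 1, and the groups overlapped.

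Of the effectors, BAX was the one member whose groups did not overlap. BAX (ENSG00000087088, protein-coding, chr19:49458072-49465055, plus strand), which forms pores in the outer mitochondrial membrane, was at 1.29, 0.441 and 1.25 FPKM in Con and at 2.40, 2.62 and 1.43 FPKM in GLUP. The mean was 0.993 ± 0.478 FPKM in Con and 2.15 ± 0.631 FPKM in GLUP (SD, n = 3 in each group), a ratio of 2.17, and every GLUP value was above every Con value. GLUP was entirely above Con for 7.55% of all tested genes, and the groups were separated in either direction for 30.3%. BAX also passed the minimum of 1 FPKM only through GLUP, so the test below was open to it because of its GLUP values. Its log2 fold change was 0.67 (SE 0.27, 95% interval 0.06 to 1.28, unadjusted p 0.0337, adjusted p 0.205 in limma), and 0.90 relative to the median of all genes. Without a minimum the adjusted p was 0.589 in limma. A two-sided exact permutation test gave p = 0.1, which is the smallest value 3 libraries per group can reach. The size of the difference depended on the scale. It was 1.12 with a pseudocount of 0.1 in place of 1, and 0.45 once Con replicate 2 was left out. Removing the trend in GC content and length gave 0.40 and left GLUP replicate 3 below Con replicates 1 and 2, so that the groups overlapped. The canonical BAX transcript has a GC content of 60.8%. The part of base composition in the difference was not tested beyond this.

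BAK1 (ENSG00000030110, chr6:33540324-33548070, minus strand), the effector that resides on mitochondria before any death signal, was at 0.315, 0.243 and 0.566 FPKM in Con and at 0.984, 0.470 and 0.553 FPKM in GLUP. Con replicate 3 lay among the GLUP values, while the other 2 Con values lay below them all. On the log2 scale GLUP was 0.27 higher (SE 0.17, 95% interval -0.15 to 0.69, adjusted p 0.622 in limma), on a scale that compresses differences between values under 1 FPKM. The ratio of the mean FPKM was 1.79. Without GLUP replicate 1 the difference was 0.14. Neither BAK1 nor BAX changed sign under any alternative that gave it a value, though some of these cannot move a fold change. BAK1 had no value with the trend in GC content and length removed.

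**Figure D2:**
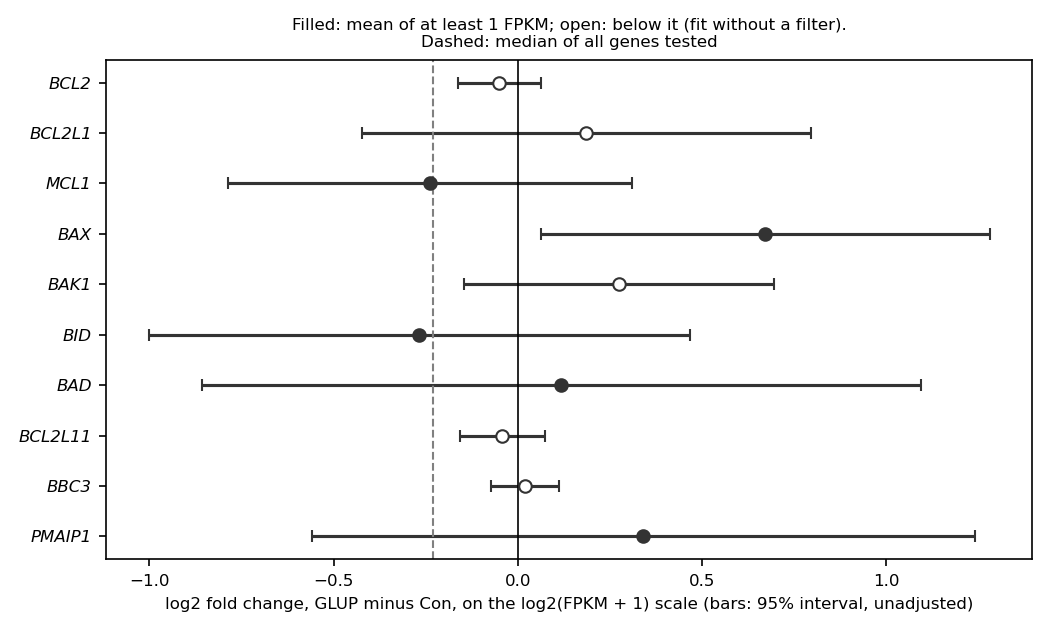
Log2 fold change (GLUP minus Con, horizontal axis) of each gene with its unadjusted 95% interval. Filled points are the 5 members with a mean of at least 1 FPKM, open points the 5 below it, and the dashed line is the median of all genes tested, -0.23. Only the interval of BAX, 0.06 to 1.28, leaves out 0. BAX passed the minimum only through its GLUP values, and 21.7% of all tested genes had an unadjusted p under 0.05 in limma. BBC3 was above 0 in only 3 libraries, so its point is given no meaning.

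The BH3-only genes spanned the widest range of levels. BID (ENSG00000015475, chr22:18216904-18257536, minus strand), whose product is activated when caspase-8 cuts it and so links death receptors to mitochondria, was at 79.3, 79.9 and 64.9 FPKM in Con and at 44.7, 59.5 and 87.8 FPKM in GLUP. GLUP held both the lowest and the highest value of the 6. The log2 fold change was -0.27 (SE 0.33, 95% interval -1.0 to 0.47, adjusted p 0.612 in limma). Relative to the median it was -0.037, and with scaling by the trimmed mean of log ratios it was 0.0081. PMAIP1 (ENSG00000141682, chr18:57567228-57571537, plus strand), which encodes NOXA, an antagonist of MCL1, was at 11.3, 3.16 and 7.36 FPKM in Con and at 7.52, 7.36 and 11.2 FPKM in GLUP. Apart from Con replicate 2, both groups covered the same range. Its log2 fold change was 0.34 (SE 0.40, 95% interval -0.56 to 1.24, adjusted p 0.597 in limma), 0.57 relative to the median, but -0.088 without Con replicate 2 and 1.0 with the trend in GC content and length removed. BAD (ENSG00000002330, chr11:64037302-64052176, minus strand), which is held inactive by 14-3-3 proteins when growth factor signalling phosphorylates it, was at 9.14, 1.77 and 6.27 FPKM in Con and at 5.54, 5.85 and 4.82 FPKM in GLUP. The GLUP values were close to each other and lay inside the spread of Con. Its log2 fold change was 0.12 (SE 0.44, 95% interval -0.86 to 1.09, adjusted p 0.878 in limma), 0.35 relative to the median, and -0.43 without Con replicate 2.

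The remaining BH3-only genes were near the limit of detection. BCL2L11 (ENSG00000153094, chr2:111876955-111926021, plus strand), which encodes BIM, was at 0.0874, 0.131 and 0.134 FPKM in Con and at 0.0693, 0.115 and 0.0734 FPKM in GLUP. The groups overlapped, and an exon of the gene overlaps MIR4435-2HG on the other strand, a transcript with a mean of 21.2 FPKM, so that these values are uncertain where counting ignored strand. BBC3 (ENSG00000105327, chr19:47724079-47736023, minus strand), which encodes PUMA, was listed at 0 in Con replicates 2 and 3 and in GLUP replicate 1. It stood at 0.0678 FPKM in Con replicate 1 and at 0.0377 and 0.0727 FPKM in GLUP replicates 2 and 3. An exact 0 can be a failed estimate, so no fold of BBC3 is read. The log2 fold changes of BCL2 and BCL2L11 were -0.05 and -0.04 with a pseudocount of 1, which compresses differences at these levels, and -0.61 and -0.42 with a pseudocount of 0.01, with adjusted p from 0.622 to 0.771 in limma. The groups of all 5 members below the minimum overlapped. Among all genes detected below it, 9.18% had groups that did not overlap.

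**Figure D3:**
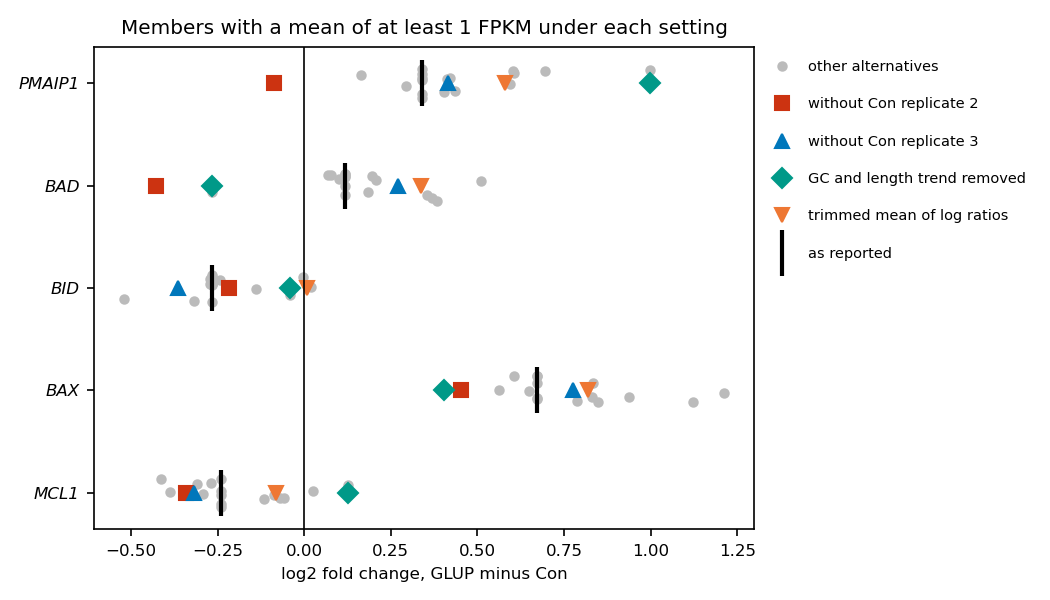
Log2 fold change (GLUP minus Con, horizontal axis) of the 5 members with a mean of at least 1 FPKM, as reported (black bar) and under each alternative that tested the gene (points). BAX stays above 0 throughout, between 0.40 and 1.21, while PMAIP1 and BAD cross 0 without Con replicate 2, at -0.088 and -0.43.

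The order of the members by level was much the same in all libraries. FPKM is scaled to gene length, so levels can be set side by side, although differences in GC content between genes also enter. BID was the highest in each of the 6 libraries, with a mean of 69.4 FPKM over all of them, above 97.6% of the genes detected. It held 79.5% of the summed mean level of the 10 genes. PMAIP1 followed at a mean of 7.98 FPKM and BAD at 5.57 FPKM, and each exceeded the next gene in 6 of 6 libraries. BAX, at 1.57 FPKM, and MCL1, at 1.36 FPKM, could not be ordered, since BAX was above MCL1 in 3 of 6 libraries. MCL1 exceeded BCL2L1, at 0.676 FPKM, in 6 of 6 libraries, and BCL2L1 exceeded BAK1, at 0.522 FPKM, in 4 of 6. The lowest were BCL2L11 at 0.102 FPKM, BCL2 at 0.0762 FPKM and BBC3 at 0.0297 FPKM, each above the next in 5 of 6 libraries. Con replicate 2 held the lowest value of 5 members, BCL2L1, BAX, BAK1, BAD and PMAIP1, and the highest of none. The canonical transcripts of 4 of these 5 have a GC content of 56.6% to 65.8%, and that of PMAIP1 has 36.7%. What set this library apart was not tested.

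A ratio of genes within a library is free of the scaling of that library, though not of a GC trend, and the balance between effectors and guardians was described in this way. For BAX to MCL1 the Con libraries gave 0.573, 0.370 and 0.988, and the GLUP libraries gave 1.76, 3.26 and 1.10. The 3 libraries in which BAX exceeded MCL1 were thus the 3 GLUP libraries, with Con replicate 3 and GLUP replicate 3 nearest to each other. The canonical transcripts of BAX and MCL1 differ in GC content, at 60.8% and 45.1%. With the trend in GC content and length removed, BAX minus MCL1 on the log2(FPKM + 1) scale was -0.26, 0.33 and -0.24 in Con and 0.31, 0.66 and -0.30 in GLUP, so the groups overlapped. The summed level of BAX and BAK1 over that of BCL2, BCL2L1 and MCL1 was 0.523, 0.459 and 0.863 in Con and 1.23, 2.00 and 1.16 in GLUP, with no overlap. The trend was not removed from genes below the minimum, so this sum has no adjusted value. Of BAK1 to MCL1 the groups overlapped, at 0.140, 0.204 and 0.447 in Con and 0.722, 0.585 and 0.425 in GLUP. The ratio of BAX to BCL2L1 also overlapped, at 1.93, 1.91 and 1.61 in Con and 1.78, 3.98 and 3.84 in GLUP. So did the ratio of PMAIP1 to MCL1, with values from 2.65 to 5.82 in Con and from 5.52 to 9.16 in GLUP. These pairs were picked with the values of BAX known, so the ratios carry no test. They are ratios of RNA and not of protein.

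**Figure D4:**
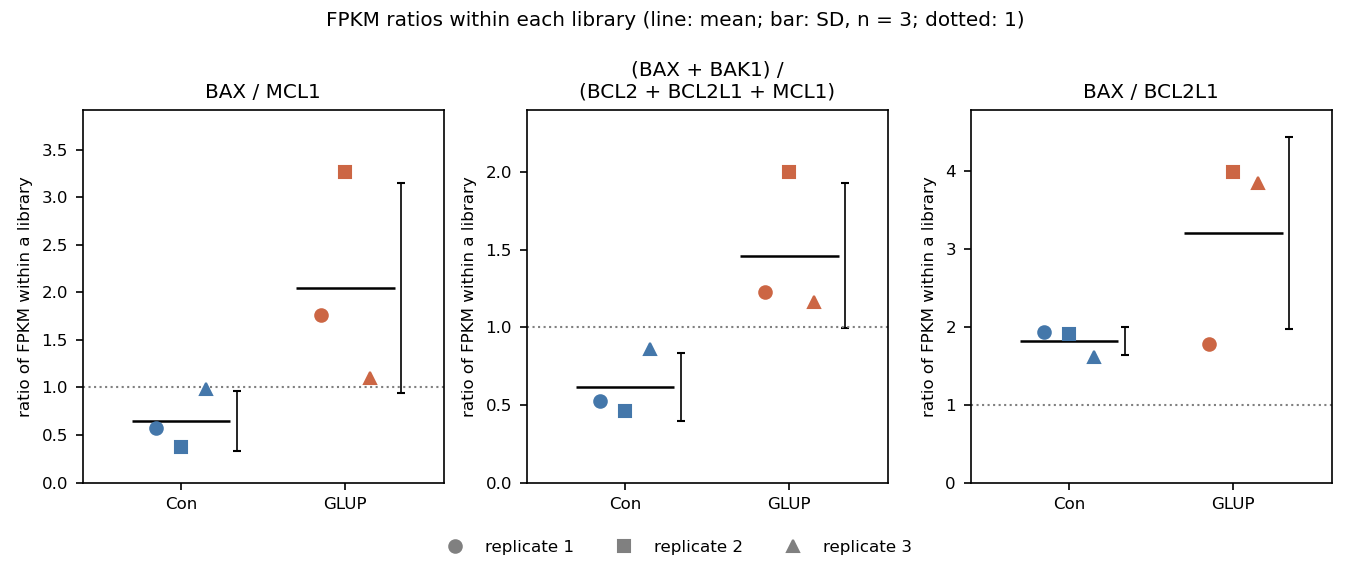
Ratios of FPKM within each library (vertical axes, from 0) in Con (blue) and GLUP (orange), with the replicate as marker shape, a line at the mean, a bar of 1 SD (n = 3) and a dotted line at 1. BAX to MCL1 and the effectors to the guardians are below 1 in all 3 Con and above 1 in all 3 GLUP libraries, whereas BAX to BCL2L1 overlaps. The values are not adjusted for GC content, and BAX against MCL1 overlaps once they are.

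The rest of the pathway was read from 5 lists with 57 genes, of which 33 had a mean of at least 1 FPKM. None of the 33 passed the adjusted threshold in limma (0% of all tested genes did), and 5 had an unadjusted p under 0.05. Their median log2 fold change was -0.30, compared with -0.23 for all tested genes. GLUP lay entirely above Con for 3 of them and entirely below for 7, or 9.09% and 21.2%, compared with 7.55% and 22.7% of all tested genes. Both shares were near those of all tested genes. Below the minimum, 2 genes of the lists were at 0 in all libraries. Among the rest there, GLUP lay entirely above Con for 1 gene and entirely below for 9. The groups were separated in either direction for 9.18% of all genes detected below the minimum, a smaller share. Those genes were not matched for level with the genes of the lists, and their share was not split by direction. No excess in the lists is therefore read from it.

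Among 13 further BCL2 family genes, 5 were tested, with a median log2 fold change of 0.07 and 3 of 5 higher in GLUP. BIK, a BH3-only protein of the endoplasmic reticulum (ENSG00000100290), had the largest difference among the 33 tested genes. It was at 5.10, 0.723 and 3.54 FPKM in Con and at 9.88, 9.60 and 9.93 FPKM in GLUP. The GLUP values were nearly identical and all above Con. GLUP was 1.57 higher on the log2 scale (SE 0.43, adjusted p 0.194 in limma). Leaving out Con replicate 2 gave 1.04, and removing the GC content and length trend gave 1.42. BNIP3L, a mitophagy receptor, lay below Con in all GLUP libraries, with 3.13 to 4.49 FPKM in Con and 2.31 to 2.88 FPKM in GLUP. The difference was -0.40 on the log2 scale (adjusted p 0.329 in limma), and 0.19 with the trend in GC content and length removed. BCL2A1 and BCL2L10, further guardians, were listed at 0 in all libraries. BCL2L2, another guardian, was below the minimum. It was at 0.449 to 0.484 FPKM in Con and 0.159 to 0.429 FPKM in GLUP, so its groups did not overlap. HRK, also below the minimum, was lower in every GLUP library, at 0.444 to 0.605 FPKM in Con and 0.240 to 0.433 FPKM in GLUP. Among all genes detected below the minimum, 9.18% had groups that did not overlap.

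In the list of mitochondrial release factors and the apoptosome, 8 of 10 genes were tested, 5 lower and 3 higher in GLUP, with a median of -0.11. VDAC3, a channel of the outer membrane, was the only one whose groups did not overlap, at 83.8 to 144.8 FPKM in Con and 66.9 to 69.6 FPKM in GLUP. GLUP differed by -0.57 on the log2 scale (adjusted p 0.284 in limma), by -0.32 without Con replicate 1 and by -0.16 with the trend in GC content and length removed. CYCS, the gene of cytochrome c, was at 109.6 to 228.5 FPKM in Con and 132.5 to 165.1 FPKM in GLUP. APAF1 and CASP9, the core of the apoptosome, were below the minimum, at means of 0.0918 and 0.235 FPKM. APAF1 lay lower in every GLUP library, whereas CASP9 overlapped.

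Caspases and death receptor genes had 9 of 13 members tested, 7 of them lower in GLUP, with a median of -0.41. CASP8, the initiator that cleaves BID, was at 3.92, 4.35 and 2.40 FPKM in Con and at 2.17, 1.69 and 1.58 FPKM in GLUP. The groups were separated, with Con replicate 3 nearest to GLUP. Its log2 fold change was -0.67 (SE 0.27, adjusted p 0.203 in limma). CASP6, an executioner caspase, was at 9.37, 14.7 and 6.88 FPKM in Con and at 5.09, 5.62 and 5.52 FPKM in GLUP, and its log2 fold change was -0.76 (SE 0.32, adjusted p 0.210 in limma). Both passed the adjusted threshold without Con replicate 3, at 0.0408 for CASP8 and 0.0468 for CASP6, in a fit that called 18.5% of all tested genes. Both differences were smaller with the trend in GC content and length removed, at -0.19 and -0.30. CASP6 was at -0.50 without Con replicate 2. Of the inhibitor of apoptosis proteins only BIRC5, which encodes survivin, was tested among 6 genes, at 20.5, 33.8 and 20.9 FPKM in Con and 21.8, 19.3 and 18.0 FPKM in GLUP. Its groups overlapped and its log2 fold change was -0.30 (adjusted p 0.542 in limma). Below the minimum, BIRC3 was at 0.118 to 0.689 FPKM in Con and 0.0177 to 0.0930 FPKM in GLUP. BIRC6 was also lower in every GLUP library, and NAIP, at a mean of 0.0792 FPKM, was higher in each. The groups of XIAP and BIRC2 overlapped. Among all genes detected below the minimum, 9.18% had groups that did not overlap.

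The last list held 15 genes that regulate family members, of which 10 were tested, 7 lower and 3 higher in GLUP, with a median of -0.61. Among all tested genes 65.5% were lower. That median lies between YWHAB, at -0.63, and YWHAE, at -0.59. The groups of both genes overlapped and both were highest in Con replicate 2. YWHAE was at 46.4 FPKM there, compared with 13.7 and 13.8 FPKM in Con replicates 1 and 3. DDIT3, which encodes CHOP, a stress factor that can induce BBC3 and BCL2L11, was at 159.0, 160.3 and 173.3 FPKM in Con and at 84.0, 72.0 and 117.2 FPKM in GLUP. Con was tight, and all GLUP values lay well below it. Its log2 fold change was -0.87 (SE 0.30, adjusted p 0.198 in limma), and -0.81 with the trend in GC content and length removed. An exon of DDIT3 overlaps MARS1 on the other strand, at a mean of 11.1 FPKM. TMBIM6, also known as BAX inhibitor 1, was at 1527, 1124 and 1097 FPKM in Con and at 616, 920 and 860 FPKM in GLUP. The groups were separated, and the log2 fold change was -0.65 (SE 0.28, adjusted p 0.215 in limma), or -0.30 with the trend removed. DYNLL1, a dynein light chain that binds BIM, and HUWE1, a ubiquitin ligase of MCL1, lay above Con in all GLUP libraries. Their log2 fold changes were 0.67 and 0.37, with adjusted p of 0.243 and 0.336 in limma. DYNLL1 was at 0.37 without GLUP replicate 3, and HUWE1 at 0.24 without Con replicate 3. FBXW7 was at -0.64 on the log2 scale, with overlapping groups. Below the minimum, MARCHF5 and USP9X lay below Con in all GLUP libraries. MARCHF5 was at 0.520 to 1.65 FPKM in Con and 0.157 to 0.392 FPKM in GLUP. USP9X was at 0.428 to 0.939 FPKM in Con and 0.268 to 0.280 FPKM in GLUP. Among all genes detected below the minimum, 9.18% had groups that did not overlap.

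**Figure D5:**
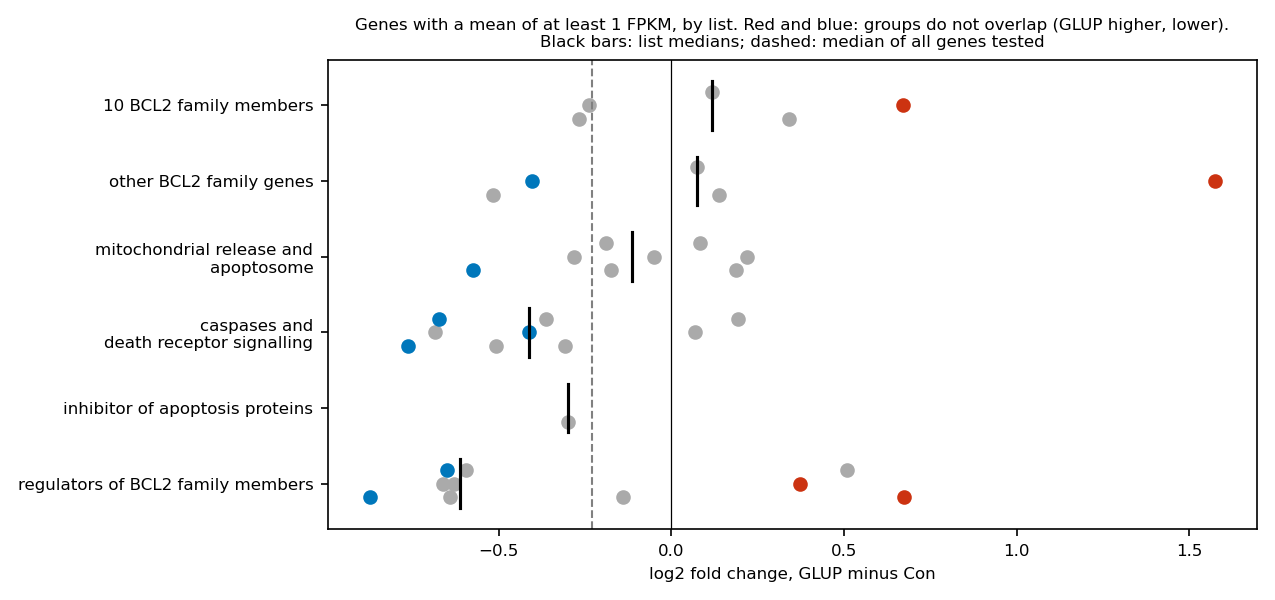
Log2 fold change (GLUP minus Con, horizontal axis) of each gene with a mean of at least 1 FPKM, by list. Red and blue points are genes whose GLUP values all lie above or below Con, grey points overlap, black bars are list medians, and the dashed line is the median of all genes tested, -0.23. BIK, at 1.57, lies farthest to the right, and the regulators of the family have the lowest median, -0.61. It lies between YWHAB and YWHAE, whose groups overlap.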

How the data were processed

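RNA-sequencing covered HGC-27 cells, and 6 samples were grouped by their titles as Con and GLUP, with 3 in each. Nothing in the labels says whether these came from separate cultures, so p-values measure the spread between these samples. The deposited data are 1 table that holds the authors' FPKM of every gene in each sample. The submitters' processing notes name HISAT2, Cufflinks and RSEM, without versions or roles, and GRCh38.p10. Of the 62492 row identifiers, however, 53015 carry the suffix of a GENCODE annotation lifted to GRCh37, so gene coordinates are those of GENCODE lifted to GRCh37, and promoter windows are those of RefSeq on GRCh38.p14. Copies on the Y pseudoautosomal region (49, all at 0) were summed with their counterparts. FPKM carries no read counts, so no count test was run.

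The comparison was fitted to log2(FPKM + 1) in R 4.3.3 with limma 3.58.1 (lmFit, then eBayes with a trend on mean level). P-values were two-sided and were adjusted by Benjamini-Hochberg across every tested gene, at a minimum mean of 1 FPKM. Genes below it were read from a fit over the 31444 genes above 0 in at least 1 library. The fit was tested on simulated data. No tested gene had an identical value above 0 in 2 libraries. Relative depth was read from the spacing of low values in single-transcript genes. GC content and length were those of the canonical transcript (98.3% of tested genes). Named genes were the 10 members and, of each other list, up to 2 genes in each direction with the smallest p among tested genes whose groups did not overlap. CYCS, APAF1, CASP9, BIRC2, BIRC3, BIRC5, BIRC6, NAIP, XIAP, BCL2A1, BCL2L10, BCL2L2, HRK, CFLAR, FBXW7, MARCHF5, USP9X, YWHAZ, YWHAB and YWHAE were added after their values were seen. The members and lists were chosen with earlier results of these data known. Alternatives added after seeing the data were centring on the median and subtracting, in each library, a loess fit to GC content and length (span 0.5), with and without the replicate block. The other alternatives concerned pseudocounts, minimum levels, scaling, the variance model, the replicate block and leaving out each library. Python 3.11.15, pandas 2.3.3 and matplotlib 3.10.9 were used.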

Additional observations from a re-analysis of the deposited data

How the results depend on the processing

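The number of members past the adjusted threshold was 0 under every one of the 21 alternatives. Of 195 member values under these alternatives 11 changed sign, 1 of them that of BBC3 and none past the threshold, and BCL2, BAX, BAK1 and BCL2L11 never did. Alternatives in the minimum level, the variance model or the replicate block alone leave a fold change as it is, so no sign could change under them. BCL2, BAK1 and BCL2L11 also had no value after removal of the GC content and length trend or centring on the median. Across the fits without 1 library each, BCL2L1 ran from -0.028 (without GLUP replicate 1) to 0.36, BBC3, with 3 values at 0 and no fold to read, from -0.0049 (without GLUP replicate 3) to 0.052, and, both lowest without Con replicate 2, BAD from -0.43 to 0.51 and PMAIP1 from -0.088 to 0.69. When the trend in GC content and length was subtracted, by itself or with the replicate block, MCL1 changed to 0.13, BAD to -0.27 and BNIP3L to 0.19. Centring on the median put MCL1 at 0.025. Scaling by the trimmed mean of log ratios put BID at 0.0081, and a common upper quartile put it at 0.021. The cause of these changes was not tested. Across the fits without 1 library each, BAX ran from 0.45 to 0.85, with adjusted p from 0.0949 to 0.474 in limma.

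The number of genes past the threshold in limma, 0 as reported, was 1 under each of a 5 FPKM minimum, a variance model without trend and the replicate block. It was 2 after subtraction of the trend in GC content and length, and 1 when this was joined to the replicate block. Leaving out single libraries gave 0 to 1367, with 3 without Con replicate 2 and 1367 without Con replicate 3. The corresponding range for the 33 pathway genes was 0 to 5. The 5 genes, all lower in GLUP and all called without Con replicate 3, were CASP6, CASP8, CFLAR, YWHAZ and YWHAB. That fit called 18.5% of all tested genes, a larger share than 5 of 33, and 1204 of its 1367 calls were lower in GLUP. Samples with the same replicate number did not deviate together (correlations of 0.13, -0.01 and -0.17), and the block changed no call of a member or pathway gene. With FPKM alone, the depth behind each value is unknown, which limits what can be said of BCL2, BCL2L11 and BBC3.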
